A study of Mus musculus with 9 samples.

Results

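The 4 mature strands of the miR-199a and miR-214 precursors, mmu-miR-199a-5p, mmu-miR-199a-3p, mmu-miR-214-3p and mmu-miR-214-5p, were followed across the lungs of 9 mice. They were chosen by name, as the entries of the array that carry exactly these miRNA names, and are 4 of the 1881 mouse miRNAs on the array. Lung RNA of each mouse was read on 1 single-colour Agilent miRNA array, with 3 mice in each of 3 groups. The control group has no treatment named. The model group was given D-galactose and sodium nitrite, a treatment used to imitate ageing, and its labels name 42 days. The codonopsis group was given Codonopsis pilosula, a root of traditional Chinese medicine, at 15 g per kg, and its labels name 30 days. Its labels do not say whether these mice were also given D-galactose and sodium nitrite, although the series describes the plant as an intervention in ageing mice. Strain and age are not given in the sources used here. Control 1, codonopsis 1 and codonopsis 2 came from males and the other 6 arrays from females, so the model group holds no male.

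MicroRNAs are short RNAs that guide Argonaute proteins to messenger RNAs, chiefly through the seed, bases 2 to 8 of the mature strand, and lower the output of those messages. Both arms of a precursor hairpin can be loaded, and they carry different seeds. In mouse, miR-199a and miR-214 are cut from Dnm3os, a long noncoding RNA made from the strand opposite to the Dnm3 gene in mesenchymal cells, and they are known in adult tissue mainly from fibroblasts and other stromal cells. In fibrotic lung miR-199a-5p is known to rise and to lower caveolin-1, a brake on TGF-β signalling, while miR-199a-3p is known in human cells to lower MTOR and MET.

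The mature sequences are shown because they decide which RNAs the array and the cell can tell apart. They are the mouse RefSeq sequences (GRCm38.p6), in which all 4 strands were found, read 5′ to 3′ with the seed in capitals.
mmu-miR-199a-5p: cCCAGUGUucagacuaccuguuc
mmu-miR-199a-3p: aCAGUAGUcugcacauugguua
mmu-miR-214-3p: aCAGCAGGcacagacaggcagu
mmu-miR-214-5p: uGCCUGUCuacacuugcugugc
mmu-miR-199b-3p: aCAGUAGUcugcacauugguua
mmu-miR-761: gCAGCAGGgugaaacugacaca
The 4 strands carry 4 different seeds. miR-199a-3p and miR-199b-3p, from the Mir199b hairpin within Dnm1 on chromosome 2, are identical along all 22 bases, so a signal for miR-199a-3p also reads miR-199b-3p. The array has no entry named miR-199b-3p. miR-761, from chromosome 4, shares the seed of miR-214-3p and differs from it outside the seed. Of the sister strands, miR-199b-5p has its own probes on the array and is named only, without its sequence. Whether the probes of miR-199a-5p also read miR-199b-5p was not tested.

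Mature miR-199a-5p and miR-199a-3p are cut from 2 hairpins with the same mature sequences. Mir199a-2 lies at chr1:162217814-162217923 on the plus strand, within Dnm3os (chr1:162217623-162225550, 7928 bases), which itself lies within Dnm3. Mir199a-1 lies at chr9:21496495-21496564 on the minus strand, within Dnm2. Mir214 lies at chr1:162223368-162223477 on the plus strand, also within Dnm3os, 5444 bases after the end of Mir199a-2. The miR-214 strands therefore come from Dnm3os alone in this annotation, whereas the miR-199a signal can come from either chromosome. The hairpins of the Dnm3os locus are shown with both mature arms in capitals, in the GRCm38.p6 build.
Mir199a-2: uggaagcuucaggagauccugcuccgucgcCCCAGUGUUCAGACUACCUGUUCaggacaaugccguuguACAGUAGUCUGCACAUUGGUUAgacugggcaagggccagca
Mir214: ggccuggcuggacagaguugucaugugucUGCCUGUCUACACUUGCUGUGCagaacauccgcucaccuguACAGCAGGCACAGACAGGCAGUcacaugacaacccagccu

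Because the 2 precursors on chromosome 1 share a transcript, the start of Dnm3os is shown as well, from 250 bases before to 50 bases after its RefSeq start (chr1:162217373-162217672, plus strand, GRCm38.p6). Matches to CANNTG, the E-box core bound by factors such as Twist1, and to the CArG box, bound by serum response factor, are in capitals.
Dnm3os promoter: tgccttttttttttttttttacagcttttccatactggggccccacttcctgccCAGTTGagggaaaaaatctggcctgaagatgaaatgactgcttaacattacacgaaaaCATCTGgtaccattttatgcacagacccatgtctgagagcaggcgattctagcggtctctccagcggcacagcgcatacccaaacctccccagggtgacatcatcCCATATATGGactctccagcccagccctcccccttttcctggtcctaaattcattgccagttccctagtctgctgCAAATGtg
CANNTG was found 3 times, starting at -196, -138 and 42 from the start, and 72.3% of 32851 promoter windows of the same length hold at least 1. The CArG box was found at -33, and 1.63% of the same windows hold it. Both motifs read the same on either strand, no matches overlap, and a match is only these letters in this window.

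Levels are log2 of the processed signal after division by a 75th percentile signal of the same array, so 0 means a signal equal to that percentile, and a level is comparable between arrays for 1 miRNA but not between miRNAs. Each array detected 375 to 484 of the 1881 miRNAs. The percentile itself ranged from 244.5 on control 1 to 538.2 on control 2. The controls filled slide 2, and the model and codonopsis arrays shared slide 1, so that against control the slide cannot be told apart from the group. Control 1 stood apart, with a median correlation with the other arrays of 0.886 against 0.951 to 0.978. Differences of the strands from control, and medians of some lists, are therefore also given without it.

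miR-199a-5p, miR-199a-3p and miR-214-3p were detected on 9 of 9 arrays, and miR-214-5p on 1. Of the strands detected throughout, none had a saturated spot, and each was read by 2 probes with 15 spots each. No group difference of these 3 strands passed the test across all miRNAs. In the scaling used here the codonopsis arrays held the lowest group mean of each of the 3 strands, although for miR-199a-3p the order of codonopsis and control turned in 4 of 8 ways of reading the signal.

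miR-199a-5p, the strand known to rise in fibrotic lung, read -0.89, -0.51 and -0.75 on control 1 to 3. On model 1 to 3 it read -1.08, -0.92 and -0.74. On codonopsis 1 to 3 it read -1.28, -1.16 and -1.06. The order of the group means was control (-0.72 ± 0.189, SD, n = 3), model (-0.92 ± 0.169, n = 3) and codonopsis (-1.17 ± 0.113, n = 3). Control and model arrays overlapped, and so did model and codonopsis arrays, since model 1 lay just below codonopsis 3. All codonopsis arrays lay below all control arrays in this scaling. In the authors' deposited log2 table all codonopsis arrays (5.70 to 6.17) lay above control 1 (5.38).

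miR-199a-3p, the other arm of the same hairpins, read 1.49, 2.24 and 1.97 on control 1 to 3. On model 1 to 3 it read 2.01, 2.10 and 2.17, and on codonopsis 1 to 3 it read 1.80, 1.83 and 1.81. Here the model group had the highest mean (2.09 ± 0.0822, SD, n = 3), followed by control (1.90 ± 0.381, n = 3) and codonopsis (1.81 ± 0.0174, n = 3). The 3 codonopsis arrays lay within a narrow range below all model arrays, while the control arrays spanned both, with control 1 the lowest of the 9 and control 2 the highest. In the deposited log2 table codonopsis 2 and codonopsis 3 (both 9.03) lay above model 2 (8.95).

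The level of miR-199a-3p on control 1 depended on how 1 spot was treated. On that array 1 of the 15 spots of probe A_54_P2380 read 10492 and was marked as non-uniform or as an outlier by the scanner software, while the mean of the other 14 was 480.5. With that spot left out, as here, control 1 read 1.49, and with it kept, 2.05. The group difference of codonopsis from control was -0.09 without it and -0.27 with it, and that of model from control 0.19 and 0.02. The other probe, A_54_P2381, had no marked spot on control 1 and read 892.6 there, against 3272 on control 2 and 2177 on control 3, so control 1 was the lowest control by this probe as well.

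miR-214-3p, an arm of Mir214, read -2.03, -2.18 and -2.29 on control 1 to 3. It read -2.25, -2.26 and -2.09 on model 1 to 3, and -2.79, -2.50 and -2.44 on codonopsis 1 to 3. Control (-2.17 ± 0.13, SD, n = 3) and model (-2.20 ± 0.0972, n = 3) arrays overlapped throughout. The codonopsis arrays (-2.58 ± 0.191, n = 3) lay below all 6 others in this scaling, with codonopsis 1 the lowest. In the deposited log2 table they did not. There codonopsis 3 read 5.03, above all controls (4.34 to 4.95) and above model 2 (4.98).

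miR-214-5p, the opposite arm of Mir214, was at the limit of the arrays. It was called detected on model 3 alone, where its level was -5.88, and was not called detected on the other 8, where it lay between -7.88 and -6.77. It is read by 4 probes with 30 spots in all, of which 1 spot on model 3 and none on the other arrays was well above background. That spot, of probe A_54_P3522, read 48.4 and was marked as non-uniform or as an outlier, so it is left out of the levels given here, while the other 6 spots of this probe averaged 6.69. The processed signal was 6.69 on model 3, which is 3.40 times the signal of the dimmest miRNA detected there. On codonopsis 1 it was 4.41, or 3.35 times that of the dimmest miRNA detected there, without a detection call. With detection on 1 array, miR-214-5p did not enter the test, and it has only a bound on the other arrays.

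**Figure D1:**
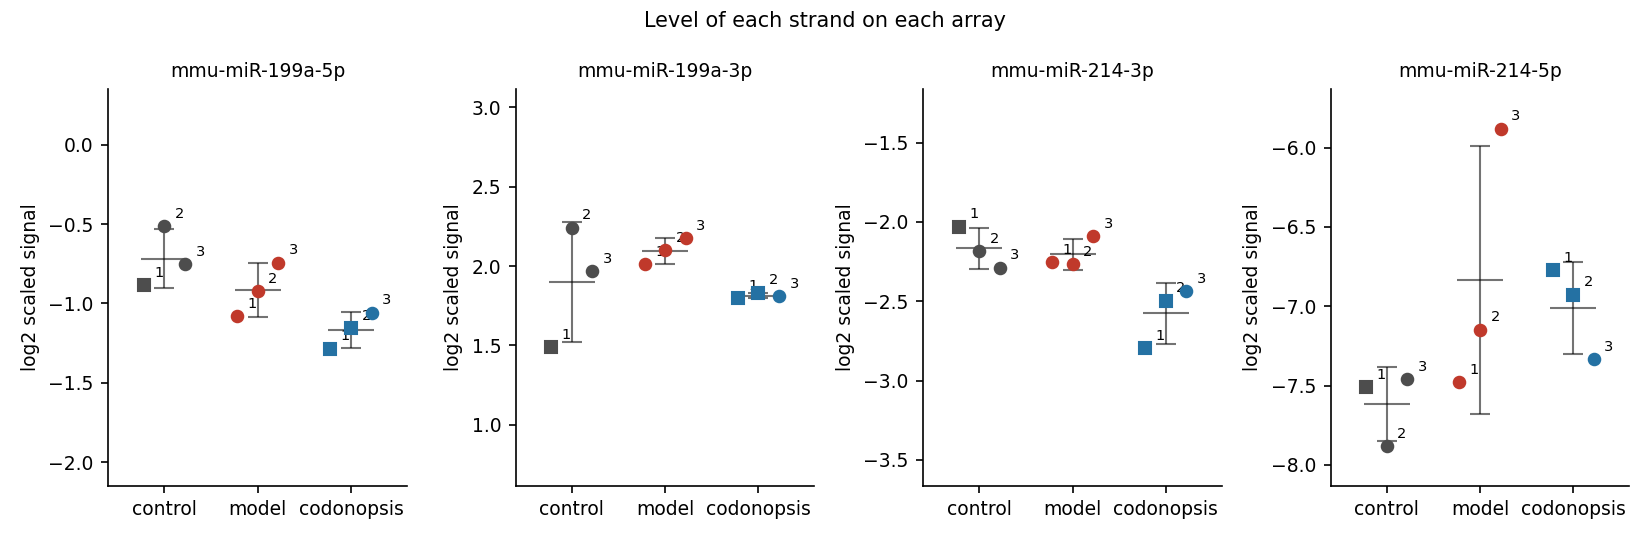
Log2 scaled signal of each strand on each array, by group, with squares for males, circles for females, the replicate number beside each point, and bars for the mean ± SD of 3 arrays. Every panel spans the same log2 range. In this scaling, though not in the deposited log2 table, the codonopsis arrays of mmu-miR-214-3p, at -2.79 to -2.44, lie below all 6 other arrays. mmu-miR-214-5p was detected only on model 3.

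Comparing model with control was possible only across slides, so D-galactose and sodium nitrite cannot be told apart from the slide. The model group also holds no male, while control 1 came from a male. miR-199a-5p differed by -0.20 (SE 0.154), miR-199a-3p by 0.19 (SE 0.191) and miR-214-3p by -0.04 (SE 0.146) on the log2 scale, beside a median of 0.04 over all 404 miRNAs tested. None passed limma's moderated test with Benjamini-Hochberg adjustment over the 404 miRNAs (adjusted p = 0.576, 0.645 and 0.956), and no strand separated the 2 groups. Over all miRNAs 0 were called (0%), although 47 had an unadjusted p under 0.05, and the smallest adjusted p was 0.283. All model arrays lay below all control arrays for 8.91% of the miRNAs tested and above them for 14.4%. The 95% intervals of the differences ran from -0.56 to 0.16 for miR-199a-5p, from -0.25 to 0.64 for miR-199a-3p and from -0.37 to 0.30 for miR-214-3p, and each holds 0. Without control 1 the difference of miR-199a-3p was -0.01 and that of miR-214-3p 0.03, both with the sign turned, and that of miR-199a-5p was -0.28.

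Comparing codonopsis with model keeps to arrays that share a slide. Beside the plant, the groups differ in sex and in the days named. The labels do not say whether the codonopsis mice were also given D-galactose and sodium nitrite. All 3 strands were lower on the codonopsis arrays. miR-214-3p differed by -0.37 (SE 0.146), which is 0.772 of the model signal, miR-199a-3p by -0.28 (SE 0.191) and miR-199a-5p by -0.25 (SE 0.154), beside a median of -0.11 over all miRNAs tested. None passed limma's adjusted test (adjusted p = 0.413, 0.516 and 0.488), and miR-214-3p had the lowest unadjusted p, 0.0348, which ranked 34 of 404. For miR-199a-3p and miR-214-3p all codonopsis arrays lay below all model arrays in this scaling, which also held for 22.3% of all miRNAs tested. Of the 404 miRNAs 0 (0%) were called. By limma, 43 miRNAs had an unadjusted p under 0.05 here. In a fit of slide 1 alone the differences were the same and limma's adjusted p was 0.180 for miR-199a-3p, 0.189 for miR-214-3p and 0.279 for miR-199a-5p, while 17 miRNAs in all were called. Without control 1, which enters only through the shared spread, 35 miRNAs were called in this comparison, none of them one of the 4 strands, and the count was 4 without codonopsis 2 and 1 without codonopsis 3.

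Comparing codonopsis with control was likewise possible only across slides. miR-199a-5p, at 0.732 of the control signal, and miR-214-3p, at 0.753 of it, had the larger differences, -0.45 (95% interval -0.81 to -0.09) and -0.41 (-0.75 to -0.07). miR-199a-3p differed by -0.09 (SE 0.191). By limma the unadjusted p was 0.0200 for miR-199a-5p and 0.0239 for miR-214-3p, ranks 37 and 39 of 404, and the adjusted p was 0.218 and 0.248, with 0.897 for miR-199a-3p. For miR-199a-5p and miR-214-3p all codonopsis arrays lay below all control arrays in this scaling, which held for 6.93% of all miRNAs. The test called 4 of the 404 miRNAs (0.99%), none of them one of the 4 strands, and the count was 46 without control 1, 2 without codonopsis 3 and 0 without control 2, model 3 or codonopsis 1. Without control 1 the differences were -0.53 for miR-199a-5p, -0.34 for miR-214-3p and -0.29 for miR-199a-3p, with limma's adjusted p = 0.0689, 0.163 and 0.163. The median of all miRNAs was -0.03. A moderated F test for any difference among the 3 groups gave adjusted p = 0.348 for miR-214-3p, 0.369 for miR-199a-5p and 0.600 for miR-199a-3p.

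**Figure D2:**
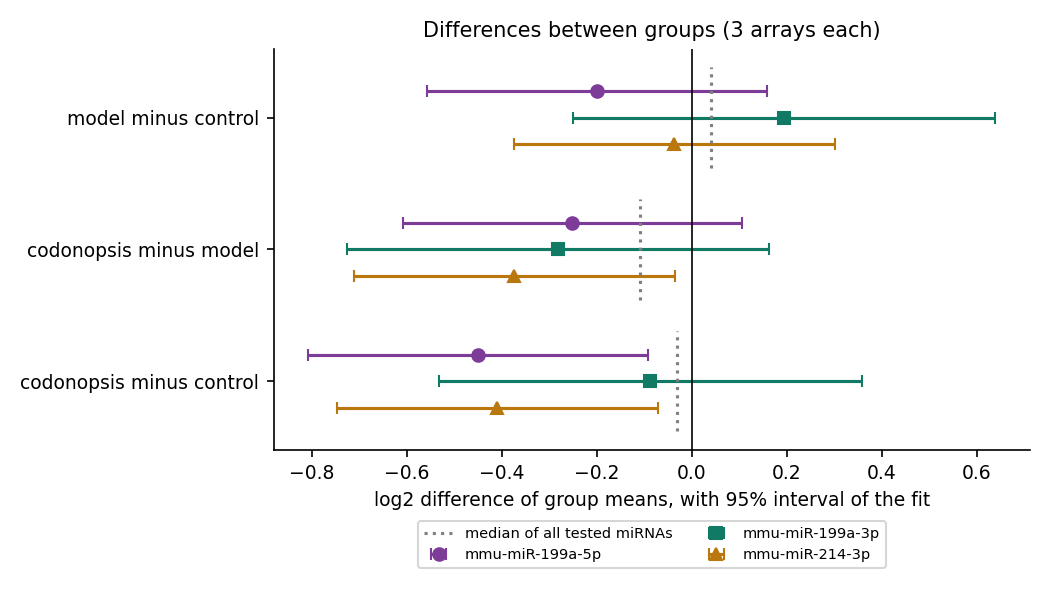
Log2 differences of group means of the 3 strands tested, with the 95% interval of the limma fit and 3 arrays a group, and the median of all 404 tested miRNAs as a dotted line. The intervals of mmu-miR-214-3p against model (-0.71 to -0.03) and of mmu-miR-199a-5p and mmu-miR-214-3p against control lie below 0 before adjustment for multiple tests, and no adjusted p passed 0.05.

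How the signal was read and scaled decided the sign of some differences. Over 8 ways of doing so, codonopsis minus model was negative 8 times of 8 for each strand, from -0.73 to -0.21 for miR-214-3p, from -0.61 to -0.07 for miR-199a-5p and from -0.64 to -0.10 for miR-199a-3p. The 8 ways are not separate checks. The deposited total signal gave almost the values reported, and quantile normalization lay close to the deposited log2 table (-0.259 and -0.254 for miR-199a-5p). Codonopsis minus control was negative 8 times of 8 for miR-199a-5p and miR-214-3p, but as small as -0.07 and -0.05 with normexp background correction. Model minus control was negative 4 times of 8 for both miR-199a-5p and miR-214-3p, and positive in 8 of 8 for miR-199a-3p. The same scalings also moved all other miRNAs: the median difference of model from control was 0.04 as reported, 0.33 after quantile normalization, 0.37 in the deposited log2 table and 0.62 with the percentile over all miRNAs. Relative to that median, model minus control was below 0 in 7 of 8 settings for miR-199a-5p (-0.29 to 0.09), in 6 of 8 for miR-214-3p (-0.13 to 0.15) and in 3 of 8 for miR-199a-3p (-0.25 to 0.18). In codonopsis minus model, miR-214-3p lay at -0.28 to -0.21 relative to the median in the 8 settings, miR-199a-5p at -0.18 to -0.09, and miR-199a-3p at -0.18 to 0.07. Relative to the median, codonopsis minus control was -0.47 to -0.10 for miR-199a-5p and -0.42 to -0.08 for miR-214-3p.

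**Figure D3:**
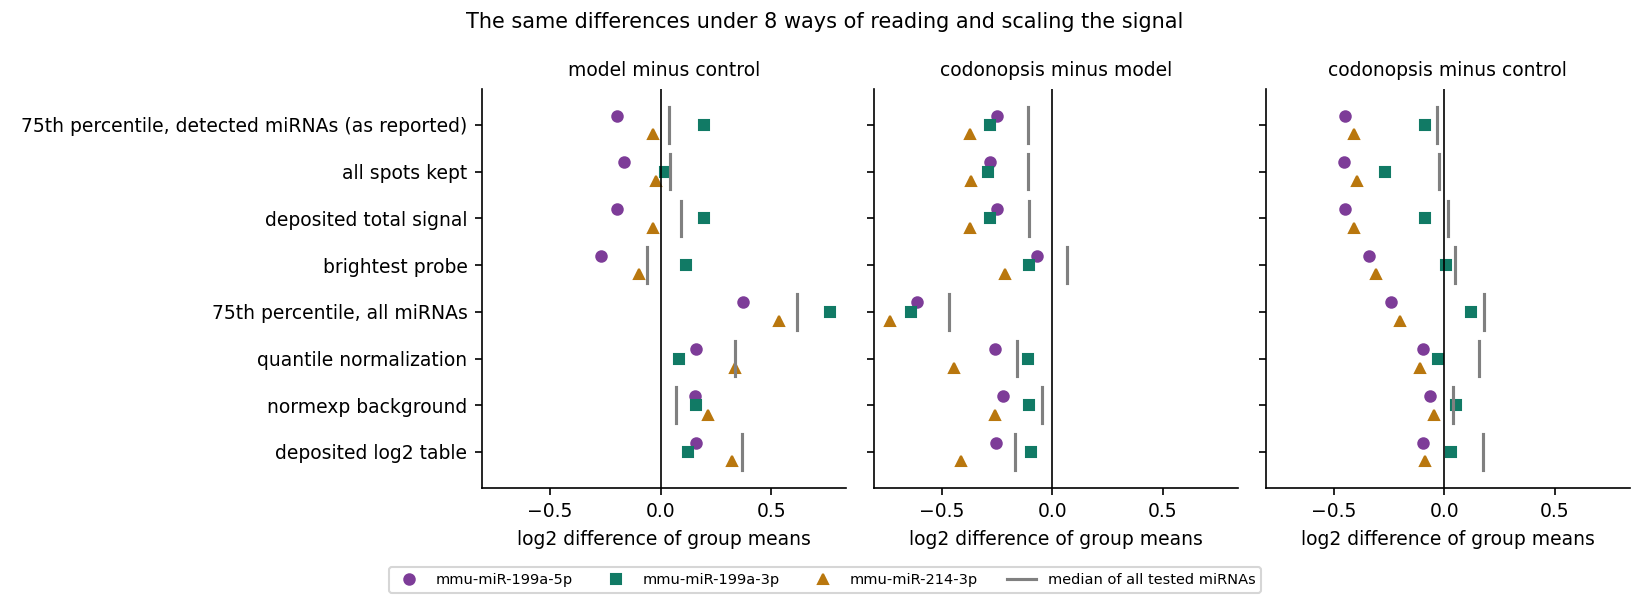
Log2 differences of group means of the 3 strands under 8 ways of reading and scaling the signal, with the median of all tested miRNAs as a grey bar in each. In codonopsis minus model every point lies below 0, and in model minus control the points of mmu-miR-199a-5p and mmu-miR-214-3p lie on both sides of it.

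Sex was unequal between the groups, so it was also fitted with group as a covariate. Male minus female was -0.31 (SE 0.177) for miR-199a-3p, -0.21 (SE 0.15) for miR-199a-5p and 0.00 (SE 0.16) for miR-214-3p, with limma's adjusted p = 0.307, 0.401 and 0.998. The value of miR-199a-3p rested on single arrays: it was 0.00 without control 1, the only male control, and -0.61 (adjusted p = 0.0455) without codonopsis 3, the only female codonopsis mouse. That last fit compares the lone male control 1 with the female controls and assumes that it varies like the other groups, and it called 112 of the 404 miRNAs. With sex in the fit, codonopsis minus model became -0.08 for miR-199a-3p and -0.11 for miR-199a-5p, against medians of all miRNAs of -0.11, and stayed at -0.37 for miR-214-3p. Codonopsis minus control was then -0.38 for miR-199a-5p, 0.02 for miR-199a-3p and -0.41 for miR-214-3p. On slide 1 the males lay in row 1 and the females in row 2, so sex and row cannot be told apart there.

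The 2 probes of each strand gave the same direction in codonopsis minus model and in codonopsis minus control. For miR-214-3p the differences from model were -0.31 and -0.40 (probes A_54_P2619 and A_54_P2620). In the scaling used here all codonopsis arrays lay below all model and all control arrays by either probe. For whole miRNAs this held in 22.3% against model and in 6.93% against control, and no share by probe was counted. Both probes read the same RNA on the same arrays. For miR-199a-3p they were -0.27 and -0.29 (A_54_P2380 and A_54_P2381). For miR-199a-5p they were -0.25 by both A_54_P2377 and A_54_P2378, but the differences from control were -0.42 and -0.76. Model minus control was -0.17 by A_54_P2377 and -0.52 by A_54_P2378. All model arrays lay below all control arrays by the second probe only, which held for 8.91% of whole miRNAs.

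This disagreement can be seen within each array, as the signal of A_54_P2377 over that of A_54_P2378, a ratio that scaling does not touch. It was 8.41, 8.04 and 9.002 on control 1 to 3, 10.2, 11.5 and 10.8 on model 1 to 3, and 11.2, 11.4 and 9.87 on codonopsis 1 to 3. The mean was 8.48 ± 0.486 (SD, n = 3) for control, 10.8 ± 0.671 (n = 3) for model and 10.8 ± 0.821 (n = 3) for codonopsis lungs, and all control arrays, which are also all the arrays of slide 2, lay below the other 6. This pattern was chosen after its values were seen and was not tested. The dimmer probe, A_54_P2378, gave 28.1 to 83.5 units of signal, with a median coefficient of variation over its spots of 18.8%, against 10.2% for the brighter one. The same ratio for miR-199a-3p stayed between 1.78 and 1.95 over all 9 arrays, and for miR-214-3p between 2.40 and 3.11. In each of these strands 1 pair of groups did not overlap either: control lay below model for miR-199a-3p (at most 1.86 against at least 1.88), and codonopsis below model for miR-214-3p (at most 2.91 against at least 2.92).

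**Figure D4:**
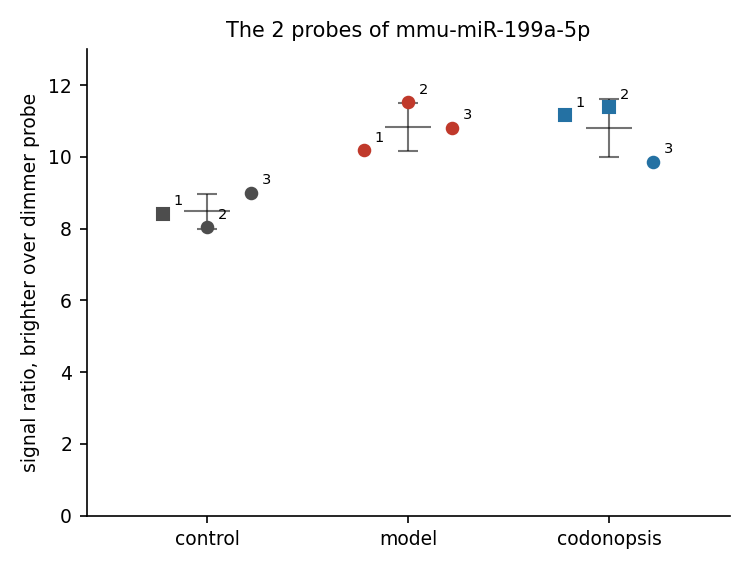
Ratio of the processed signals of the 2 probes of mmu-miR-199a-5p (A_54_P2377 over A_54_P2378) on each array, with squares for males, circles for females, replicate numbers beside the points and bars for the mean ± SD of 3 arrays. The control arrays lie at 8.04 to 9.002 and the other 6 at 9.87 to 11.5.

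The arms of miR-199a can also be compared within an array, where the change of their log2 difference between groups does not depend on scaling by 1 factor. This is not a measure of 1 hairpin. Both arms can come from Mir199a-1 or Mir199a-2, and the 3p signal also reads miR-199b-3p from Mir199b. Whether the 5p signal also reads miR-199b-5p was not tested. miR-199a-5p minus miR-199a-3p was -2.37, -2.75 and -2.72 on control 1 to 3. It was -3.09, -3.02 and -2.92 on model arrays, and -3.08, -2.99 and -2.87 on codonopsis arrays. The 5p arm was thus lower against the 3p arm on all 6 arrays of slide 1 than on all 3 controls, by 0.39 in the means of model and control, while model and codonopsis differed by 0.03. The gap depended on how the signal was read: model minus control was -0.39 as reported, with the deposited total signal and with the brightest probe, -0.19 with all spots kept, 0.00 with normexp, 0.03 in the deposited log2 table and 0.08 after quantile normalization. miR-199a-5p minus miR-214-3p, which sets miR-199a from both its hairpins against Mir214, had overlapping groups. The means were 1.45 ± 0.273 (SD, n = 3) for control, 1.29 ± 0.0987 (n = 3) for model and 1.41 ± 0.0891 (n = 3) for codonopsis lungs.

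Across the 9 arrays the strands were compared in 3 pairs, with exact permutation tests, two-sided, adjusted over the 3 pairs with the Benjamini-Hochberg method. The permutations mixed all 9 arrays regardless of group and slide. A shift of a whole group or slide shared by both strands therefore counts toward p, which does not measure variation between mice of 1 group. miR-199a-5p and miR-214-3p gave Pearson's r = 0.745 (exact permutation p = 0.0146, adjusted 0.0438) and Spearman's rho = 0.733 (p = 0.0311, adjusted 0.0934). The r was 0.683 without control 2 and codonopsis 1, the arrays farthest from the median of miR-199a-5p. The arms miR-199a-5p and miR-199a-3p gave r = 0.534 (exact permutation p = 0.132, adjusted 0.199) and rho = 0.600 (p = 0.0968, adjusted 0.145), with r = 0.260 without the same arrays. miR-199a-3p and miR-214-3p gave r = 0.188 (exact permutation p = 0.602, adjusted 0.602) and rho = 0.350 (p = 0.359, adjusted 0.359), and r = 0.868 without control 1 and control 2, so the low value rested on those arrays. Within slide 1, whose 6 arrays hold model and codonopsis mice, r was 0.910, 0.883 and 0.876 for the 3 pairs in the order given. Slide 2 holds 3 arrays and gives no value. All points share each array's scaling, and on slide 1 the codonopsis arrays lie mostly at the low end of each pair.

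**Figure D5:**
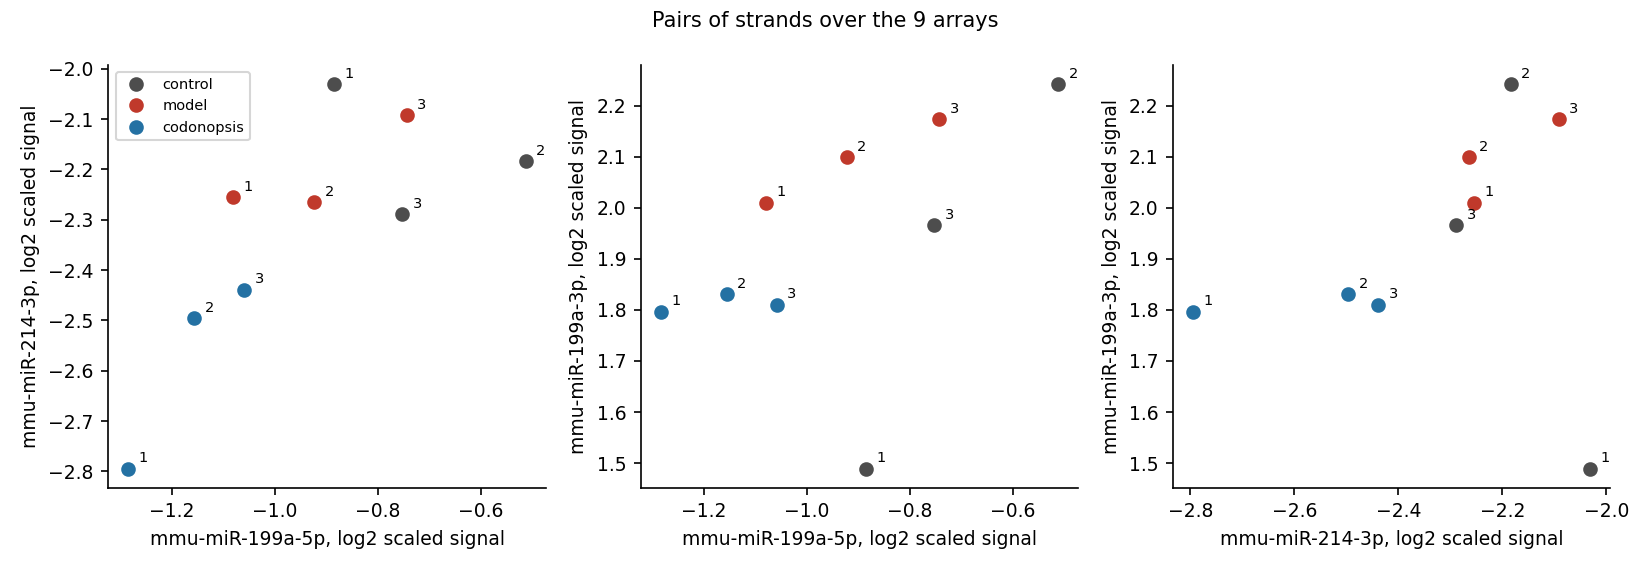
Log2 scaled signals of the 3 strands tested, plotted against each other with 1 point per array, the replicate number beside it and the group as colour. The codonopsis arrays lie toward the low end of mmu-miR-199a-5p and mmu-miR-214-3p, and control 1, at 1.49 for mmu-miR-199a-3p, lies apart in the panels of that strand.

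The 401 other tested miRNAs were ranked by Pearson's r of their level with each strand over the 9 arrays, as a description. Closest to miR-199a-5p were miR-27b-3p (r = 0.873), miR-148b-3p (0.851) and miR-92a-3p (0.818), the last a member of the miR-17 to miR-92 cluster. Closest to miR-199a-3p were miR-101a-3p (0.943), miR-101c (0.929) and miR-10a-5p (0.927). Closest to miR-214-3p were miR-3960 (0.890), miR-6538 (0.884) and miR-3069-3p (0.824). These orders depended on scaling. After quantile normalization r was -0.03 for miR-27b-3p and 0.278 to 0.342 for the 3 miRNAs closest to miR-199a-3p. It was 0.919 for miR-148b-3p, 0.956 for miR-6538 and 0.939 for miR-3069-3p, and 0.283 for miR-3960.

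A relative with its own probes on the array is miR-199b-5p, from the Mir199b hairpin, which is also listed among miRNAs raised in fibrotic lung. Whether these probes tell it apart from miR-199a-5p was not tested. It read 1.11, 1.68 and 1.33 on control 1 to 3, 1.33, 1.63 and 1.66 on model 1 to 3, and 1.22, 1.16 and 1.34 on codonopsis 1 to 3. All groups overlapped. By limma it differed by 0.16 (SE 0.179, adjusted p = 0.677) between model and control and by -0.30 (SE 0.179, adjusted p = 0.488) between codonopsis and model. miR-761, which shares the seed of miR-214-3p, was detected on control 1 alone, at -3.54, and its signal was below 0 on the other 8 arrays, so it has only a bound there.

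Other miRNAs of fibroblasts were counted from a list of 8, of which 7 were on the array and tested. None of the 7 was called in any comparison. In model minus control 6 of 7 were higher, with a median of 0.16, but without control 1 the median was 0.08 and 2 of 7 were lower. In codonopsis minus model 6 of 7 were lower, with a median of -0.27 beside -0.11 for all miRNAs, and 3 had all codonopsis arrays below all model arrays. Of all 404 miRNAs 244 were lower, and 22.3% had all codonopsis arrays below. Among the 3 was miR-152-3p, at -0.37 ± 0.0634 (SD, n = 3) against -0.07 ± 0.106 (n = 3), a difference of -0.30 (SE 0.14, limma adjusted p = 0.471). In codonopsis minus control 3 of 7 were lower, with a median of 0.02, and without control 1 6 of 7 were lower, with a median of -0.08. Their summed scaled signal, in which the brightest miRNAs weigh most, was 12.7 to 16.6 on control, 16.0 to 17.8 on model and 13.2 to 14.6 on codonopsis arrays.

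In smooth muscle, the other contractile stromal cell of lung, the defining miRNAs are the arms of miR-143 and miR-145a, and 3 of the 4 listed were tested. None was called. miR-143-3p was 1.06 ± 0.203 (SD, n = 3) on control, 0.69 ± 0.109 (n = 3) on model and 0.67 ± 0.307 (n = 3) on codonopsis arrays. miR-145a-5p was -1.67 ± 0.416 (n = 3), -2.20 ± 0.0945 (n = 3) and -2.24 ± 0.379 (n = 3) in the same order. All 3 were lower in both groups than in control, with medians of -0.38 and -0.40, beside 0.04 and -0.03 for all miRNAs. Without control 1 the medians of the 3 were -0.31 and -0.35. The median of codonopsis minus model was -0.04, beside -0.11 for all miRNAs.

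Lists of miRNAs known to rise and to fall in fibrotic lung were counted beside the strands, since miR-199a-5p is known there. Of 6 miRNAs known to rise, 4 were higher in model than in control (median 0.12, and -0.15 without control 1) and 6 were lower in codonopsis than in model (median -0.21). Among them miR-21a-5p, a miRNA driven by TGF-β and not on the fibroblast list above, was 3.02 ± 0.406 (SD, n = 3) on control, 3.10 ± 0.195 (n = 3) on model and 2.54 ± 0.0817 (n = 3) on codonopsis arrays, a difference of -0.56 from model (SE 0.216, limma adjusted p = 0.413). Of 10 miRNAs known to fall, 9 were higher in model than in control (median 0.26, and 0.11 without control 1) and 10 were lower in codonopsis than in model (median -0.29). Without control 1, 3 of these 10 and 4 of the 6 known to rise were lower in model than in control. Of all 404 miRNAs, 220 were higher in model than in control (median 0.04). In codonopsis minus model 244 of the 404 were lower (median -0.11). miR-29a-3p, which lowers collagen messages, differed by 0.44 (SE 0.235, limma adjusted p = 0.457) and by -0.41 (SE 0.235, adjusted p = 0.488) in these comparisons. No member of either list was called, and both lists lay lower in codonopsis than in model. The list of those that rise also holds miR-199b-5p and miR-145a-5p of the lists above.

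Whole lung RNA does not show which cells carried the strands, so their mesenchymal source is background here and was not measured. Fewer cells of a type and less RNA per cell cannot be told apart in such samples, and markers of other cells were therefore summed on the same scale. In each sum the brightest miRNAs weigh most. Of the 10 epithelial miRNAs, 9 were detected on all arrays, and the sum over the 10 was 12.3 to 14.9 on control, 12.4 to 17.5 on model and 10.2 to 14.0 on codonopsis arrays. In codonopsis minus model 9 of 9 tested were lower, with a median of -0.29, and none was called. Of all 404 miRNAs 244 were lower there, with a median of -0.11. The endothelial arms of miR-126a summed to 36.1 to 51.5, 55.4 to 60.1 and 42.2 to 58.6 in the order control, model and codonopsis, and 2 of 2 were lower in codonopsis than in model. Nearly all of this sum is miR-126a-3p. miR-126a-5p went the other way against control, by -0.89 (SE 0.218, limma adjusted p = 0.283) in model and -0.99 (SE 0.218, adjusted p = 0.0783) in codonopsis lungs. All arrays of both groups lay below all controls, which held for 8.91% of all miRNAs tested in model and 6.93% in codonopsis. Against control the slide cannot be told apart from the group. The 6 leukocyte miRNAs summed to 2.84 to 10.8, 3.29 to 5.32 and 3.39 to 5.29, with a median difference of 0.01 between codonopsis and model. The 3 erythroid miRNAs summed to 29.6 to 36.1, 24.4 to 40.0 and 26.8 to 49.0, and 3 of 3 were higher in codonopsis than in model, with a median of 0.09. Most of this sum is miR-451a, at a mean level of 4.95 on control against -0.61 for miR-144-3p. Of 6 striated muscle miRNAs, 3 were detected on all arrays, and the sum over the 6 was 2.63 to 4.29, 2.92 to 5.22 and 0.523 to 8.96, with 1 codonopsis array above and the others below all model arrays. None of these marker miRNAs was called, and their part in the differences of miR-199a and miR-214 was not tested.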

How the data were processed

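Per the labels' protocols, total lung RNA was labelled with Cy3 and hybridised to Agilent miRNA arrays. The deposited scanner files give fluorescence intensity on a linear scale. Per the file headers they come from Agilent Feature Extraction 11.5.1.1, while the submitters' processing notes name 10.10. The processed intensity is background-corrected and not scaled between arrays. The authors' deposited table of log2 values correlated with the log2 total signals of the same arrays at 0.9944 to 0.9991, and its columns share 1 maximum. No column lacked a sample.

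Spots marked non-uniform or as outliers (3.05%) were left out. Signals were averaged over spots, then over the probes of a miRNA, divided by the array's 75th percentile (taken over 289 miRNAs with a detection call on each of the 9 arrays), floored at a log2 of -8, and put on the log2 scale. A miRNA was tested where some group detected it on each of its 3 arrays, which held for 404, with limma 3.58.1 in R 4.3.3, in 1 fit of 9 arrays with 6 residual degrees of freedom, two-sided, with Benjamini-Hochberg adjustment over the 404 and a threshold of 0.05. A second fit added sex. The fit was also run on simulated data, with changes larger than any group difference given here and without a slide effect. That run does not measure its power for small differences. Exact permutation tests used SciPy 1.17.1. Replicates are separate mice per the design text, numbered in accession order.

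Alternatives changed the percentile, the normalization, the background, the signal, the spots, the probes, the filter and the arrays. The files hold no mean signal, so normexp (offset 50) used the median signal of each spot, which was decided after the files were seen, as was reading each probe alone and counting the lists without control 1. Beside the 4 strands, the text names the miR-199b and smooth muscle lists, miRNAs that share a seed with a strand, the 3 tested miRNAs closest to each strand, and of each other list some of the 2 with the largest difference in a comparison. The strands and the lists were chosen with earlier results of these data known. The number of arrays limits the precision.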

Additional observations from a re-analysis of the deposited data

How the results depend on the processing

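No difference of miR-199a-5p, miR-199a-3p or miR-214-3p between groups passed the adjusted threshold in any of its 174 alternative values with a test, where the smallest adjusted p was 0.0689, for miR-199a-5p in codonopsis minus control without control 1. Of 192 alternative values of these 9 differences, 17 turned sign. Many of the 192 could not turn. A changed filter, slide 1 alone, or leaving out an array of the group not compared leaves the difference itself as it was. For model minus control, miR-199a-5p turned to 0.37 with the percentile over all miRNAs, 0.16 with quantile normalization, 0.16 with normexp and 0.16 in the deposited log2 table. In the same order miR-214-3p turned to 0.53, 0.34, 0.22 and 0.32, and it was 0.0082 by probe A_54_P2620 alone. These scalings also moved the median of all miRNAs: relative to it the 4 values were -0.25, -0.17, 0.09 and -0.21 for miR-199a-5p and -0.08, 0.00, 0.15 and -0.05 for miR-214-3p. For codonopsis minus control, miR-199a-3p turned to 0.12 with the percentile over all miRNAs, 0.0536 with normexp, 0.0297 in the deposited log2 table, 0.00849 by the brightest probe and 0.0153 with sex as a covariate. Leaving out 1 array at a time gave -0.0101 to 0.37 for miR-199a-3p and -0.10 to 0.0326 for miR-214-3p in model minus control, with the sign turned without control 1 in both. It gave -0.29 to 0.0847 for miR-199a-3p in codonopsis minus control, with 0.0847 without control 2. Male minus female ran from -0.61 to 0.00364 for miR-199a-3p, and from -0.21 to 0.21 for miR-214-3p, whose values were 0.09 without codonopsis 1 and 0.21 without codonopsis 3.

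Of all miRNAs, codonopsis minus model called 1 in the deposited log2 table, 2 with the deposited total signal, 17 on slide 1 alone and 0 to 35 without 1 array. Codonopsis minus control called 0 with the percentile over all miRNAs, with quantile normalization, with detection on at least 1 array and with no filter, 8 with normexp, 2 with all spots kept and 0 to 46 without 1 array. The cause of these changes was not tested. The difference of the 199a arms moved, in the order of comparisons used in the report, to 0.00, -0.12 and -0.12 with normexp, to 0.03, -0.16 and -0.13 in the deposited log2 table and to 0.08, -0.15 and -0.07 with quantile normalization. miR-199a-3p minus miR-214-3p in codonopsis minus model moved to 0.32 in that table and 0.33 with quantile normalization, where model minus control was -0.25. The likeness of miR-27b-3p to miR-199a-5p turned to -0.0273 with quantile normalization. No paired analysis was possible because the labels give the replicates no shared numbers. miR-214-5p lay too near the background to be compared.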
